A study of Mus musculus with 4 samples.

Results

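Sertoli cells are the somatic cells of the seminiferous epithelium that surround and support every stage of germ cell. They were picked from single-cell RNA sequencing of testes of 4 pups at postnatal day 15 (P15), 2 wild-type and 2 Meioc-null, on the C57BL/6N background. Barcodes with more than 1000 detected genes and under 10% mitochondrial UMIs were kept. A kept barcode was a Sertoli member when at least 3 of Rhox8, Aard, Cldn11, Sox9 and Wt1 had a UMI and these 5 markers summed to at least 5 per 10000 UMIs. Members also held at most 2 UMIs of the germ cell gene Dazl and at most 5 UMIs of the smooth muscle genes Acta2 and Myh11. The members were thus chosen by measured values of these genes, whose levels are given as a description with no test. The lowest marker sums of members were 5.18 to 5.67 per 10000 UMIs over the libraries, and the highest sums of barcodes that missed only this limit were 4.55 to 4.94. This left 1163 members of 29592 kept barcodes (3.93%), with 322 and 239 in wild-type replicates 1 and 2 and 337 and 265 in Meioc-null replicates 1 and 2.

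The Meioc-null pups carried the Meioc tm1.1Dpc allele, which removes a germ cell factor needed for progression into meiotic prophase. Both genotypes were also heterozygous for Hspa2 tm1Dix and homozygous for a ROSA26 tdTomato reporter whose floxed stop was intact. Each batch held 1 littermate pair, so the replicate number names both the batch and the pair. A single testis per pup was dissociated, and most of the interstitium was discarded with the first supernatant, which limits the classes outside the tubules. The 4 libraries held 11986 to 16486 barcodes that the authors' cell calling had passed and 158291903 to 190455307 UMIs. Kept barcodes had a median of 11854 to 14842 UMIs, whereas members had a median of only 2652.5 and 4071 in the wild-type libraries, with 2832 and 2986 in the null ones. Between 45 and 73 barcodes were shared by each pair of libraries, and no member barcode was shared. Meioc itself was counted at 281 and 279 CPM (counts scaled to 1e+06 UMIs) in wild-type germ cells and at 332 and 265 CPM in Meioc-null germ cells, so its 3′ tags did not check the genotype.

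Sertoli cells respond to follicle stimulating hormone and androgen, secrete inhibin and proteins of the tubule fluid, and form the junctions of the blood-testis barrier. They feed germ cells with lactate, take up dying germ cells and leftover cytoplasm, and in the mouse stop dividing in the second postnatal week. Levels below are CPM, a gene's share of the UMIs summed over the members of a library, with 1 tag counted per captured molecule. The label was read from 4 markers that the rule did not use. Inha, the inhibin alpha subunit, was at 1454 and 986 CPM in wild-type members against 41.1 CPM in germ cells and 19.5 CPM in peritubular myoid cells. Amh, the anti-Mullerian hormone, was at 126 and 75.0 CPM against 3.62 CPM in germ cells. Fshr, the receptor for follicle stimulating hormone, was at 26.1 and 20.0 CPM against 0.79 CPM in germ cells. Gata4, a factor of several gonadal cell types, was at 61.4 and 74.6 CPM, near its 53.5 CPM in myoid cells. All 4 were thus present, and the 3 markers of the rete testis (Pax8, Cdh16 and Krt19) were at 0 in members of every library.

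The genes that stood highest in members relative to the other classes were ranked by the ratio of their mean wild-type level in members to the highest mean level among germ, myoid, Leydig-like and fibroblast-like cells. Promoters are shown to give the sequence beside the gene. They are those of the first 3 such genes with an entry in the promoter set used, and of Wfdc10, whose promoter held 2 of the searched motifs. Each is 300 bases of GRCm38.p6 from RefSeq, 250 before to 50 after the start, read 5′ to 3′ on the gene's strand. The windows are chr2:152604077-152604376 (plus strand), chrX:103414217-103414516 (plus), chrX:36492586-36492885 (minus) and chr2:164655796-164656095 (plus). Capitals mark matches, on either strand, of AACAAT, a core letter string bound by SOX factors, or AGATAA, a core bound by GATA factors.
Defb36: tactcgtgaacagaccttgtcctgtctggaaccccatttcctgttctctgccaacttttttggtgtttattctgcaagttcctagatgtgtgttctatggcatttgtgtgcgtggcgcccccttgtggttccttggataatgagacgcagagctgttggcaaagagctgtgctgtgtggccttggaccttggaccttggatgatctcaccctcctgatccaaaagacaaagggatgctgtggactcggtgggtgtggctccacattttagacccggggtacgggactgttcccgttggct
Tsx: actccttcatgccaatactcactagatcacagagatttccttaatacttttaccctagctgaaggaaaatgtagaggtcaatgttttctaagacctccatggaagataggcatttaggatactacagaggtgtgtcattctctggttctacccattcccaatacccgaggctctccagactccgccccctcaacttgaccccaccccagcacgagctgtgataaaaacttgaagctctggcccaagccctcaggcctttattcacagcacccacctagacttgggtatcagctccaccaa
Gm14569: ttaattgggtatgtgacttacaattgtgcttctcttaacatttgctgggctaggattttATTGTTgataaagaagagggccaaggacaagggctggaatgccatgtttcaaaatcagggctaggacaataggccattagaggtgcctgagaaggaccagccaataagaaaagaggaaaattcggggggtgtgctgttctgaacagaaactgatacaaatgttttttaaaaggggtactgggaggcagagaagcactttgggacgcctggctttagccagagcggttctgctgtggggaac
Wfdc10: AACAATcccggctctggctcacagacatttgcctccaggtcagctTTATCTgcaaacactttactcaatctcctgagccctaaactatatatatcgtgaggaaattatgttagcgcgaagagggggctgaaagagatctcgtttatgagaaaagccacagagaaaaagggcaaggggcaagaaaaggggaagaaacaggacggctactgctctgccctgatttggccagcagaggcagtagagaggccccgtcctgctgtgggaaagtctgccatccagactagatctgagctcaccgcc
Of the 15 highest-ranked genes 13 had 16 promoters in the set used, which lacked Cidea and 1700011M02Rik. Of these 16 windows, 3 held AACAAT, against 10.7% of all 32851 promoters, and 3 held AGATAA, against 11.2%. AAGGTCA, a core bound by NR5A1, was in 0 of the 16 and in 4.72% of all promoters. Defb36 and Tsx held none of the 3 letter strings in these windows.

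Defb36, a beta-defensin, was at 1055 and 1296 CPM in the wild-type members, at 1275 and 1441 CPM in the Meioc-null members and at 29.2 CPM in wild-type germ cells. Tsx, an X-linked testis gene, was at 387 and 281 CPM in wild type and at 359 and 382 CPM in Meioc-null. Cst9, a cystatin-family protease inhibitor, was at 3333 and 2859.6 CPM in wild type and at 2818 and 2639 CPM in Meioc-null. Wfdc10, of the same whey acidic protein family as the protease inhibitor Eppin, was at 1876 and 2126 CPM. Shbg, the androgen-binding protein of the tubule, was at 299 and 233 CPM. Chp2, Tmem114, Gstm6, Cstdc1, Cidea, Etd, Gm14569, 1700018G05Rik, 4933402E13Rik and 1700011M02Rik completed the 15. Defensins, cystatins and glutathione transferases belong to families of similar sequence, so the split of reads within a family is uncertain.

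Many of the genes highest in members lay on chromosomes X and 2. Among the 1795 genes at 100 CPM or more in both wild-type libraries, 76 were over 10-fold higher in members than in every other class. Of the 76, 17 (22.4%) were on chromosome X, where 83 (4.62%) of the 1795 lay. Another 10 (13.2%) were on chromosome 2, the home of the defensin, cystatin and Wfdc clusters, against 120 (6.69%) of the 1795. Chromosome 15 held 7 (9.21%) of the 76, against 75 (4.18%) of the 1795, so chromosome 2 did not stand apart. These shares are descriptions, because membership rested on the same cells and the genes of the member rule were not left out of the counts. In the Meioc-null libraries, which did not enter the ranking, 65 of the 76 were again over 10-fold higher in members, and the lowest ratio was 3.28. The Meioc-null members and classes were picked by the same rules, so this repeat is a description too.

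The ratios of the first 15 genes lay close together, from 34.6 for Cstdc1 to 40.3 for Defb36, and for all 15 the next highest class was germ cells. Across the 76 genes the germ cell level was a median of 3.31% and 3.24% of the member level in wild-type replicates 1 and 2 and 3.46% and 3.34% in the Meioc-null replicates. In myoid cells the same median was 1.56%, 0.849%, 1.76% and 0.918% in the same order of libraries. Over single genes the wild-type germ cell share ran from 2.48% to 9.93%. Shares over 10% could not occur in wild type, since the 76 genes were selected on it, so these values are a description. Myoid, Leydig-like and fibroblast-like cells had to hold fewer than 3 Sertoli markers, whereas germ cells had no such limit. In each library 129 to 183 barcodes met the Sertoli marker limits with over 2 Dazl UMIs, and these could count as germ cells. The order of the classes is thus partly set by the rules.

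**Figure D1:**
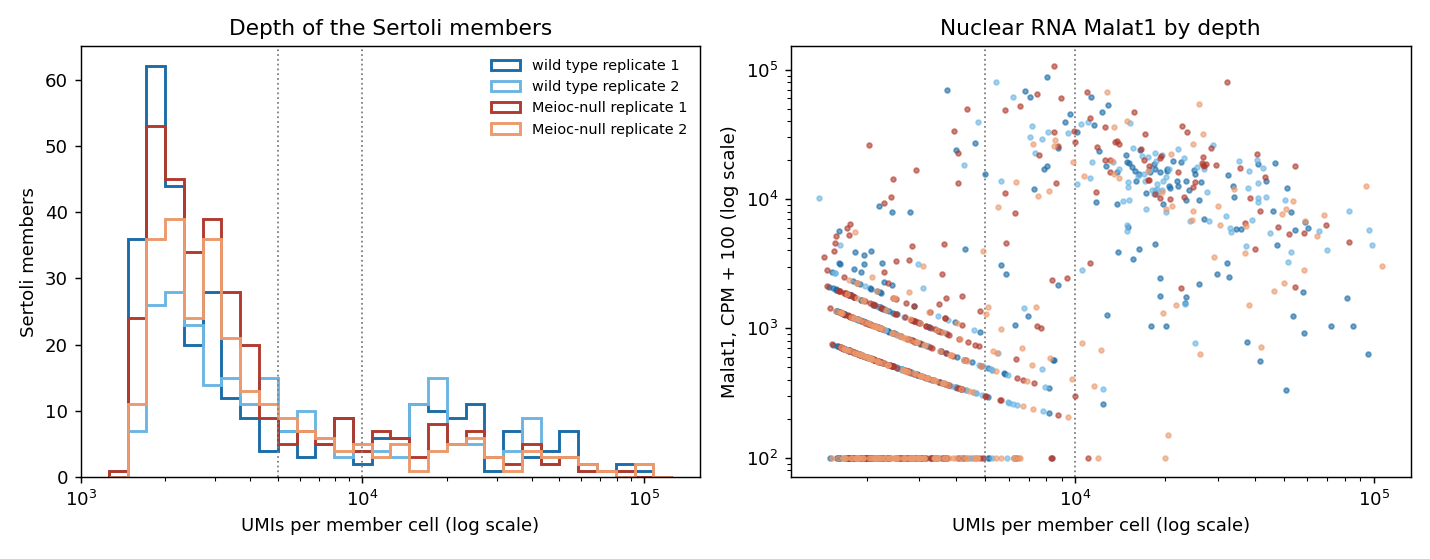
UMIs of each Sertoli member (left, members per bin on a log axis) and Malat1 level against UMIs (right, both axes logarithmic, 1 point per member, CPM + 100), colored by library. Dotted lines mark 5000 and 10000 UMIs. Most members lie under 5000 UMIs and a smaller group lies above 10000 UMIs, with the summed Malat1 level at 479 to 1995 CPM in the first and at 8659 to 16088 CPM in the second.

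Most members fell into 2 depth ranges that also differed in what RNA they held. Under 5000 UMIs lay 215 and 140 wild-type members (66.8% and 58.6%) and 253 and 191 Meioc-null members (75.1% and 72.1%). At least 10000 UMIs were found in 82 and 72 wild-type members (25.5% and 30.1%) and in 54 and 45 Meioc-null members (16.02% and 17.0%). The deep members held 78.0%, 78.3%, 62.6% and 67.2% of all member UMIs, so the summed levels above mostly describe them. Malat1, a long noncoding RNA retained in the nucleus, was at 1995, 1116, 1744 and 479 CPM in the shallow members and at 8659, 11096, 16088 and 9088 CPM in the deep members of wild-type replicates 1 and 2 and Meioc-null replicates 1 and 2. No shallow value reached a deep value. Members of 5000 to under 10000 UMIs had 17229, 13203, 18374 and 6015 CPM in the same order, above the deep members in all but Meioc-null replicate 2. Immediate early and heat shock genes (10 genes, among them Fos, Jun and Egr1) summed to 352 to 562 CPM in shallow and to 2281 to 2563 CPM in deep members. In the members between these ranges they summed to 7050, 2227, 2748 and 1608 CPM in the same order of libraries. Mitochondrial genes took a median of 3.42% to 5.21% of UMIs in shallow and of 8.48% to 9.30% in deep members. Members had to lie under 10%, so the deep medians were near this limit. The part of the limit in the number of deep members was not tested. Whether the shallow barcodes held whole cells was not tested.

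The lists differed between the depth ranges. Every member had to hold at least 3 of the 5 markers of the rule. These 5 markers summed to 6790 and 8843 CPM in shallow wild-type members and to 7557 and 7488 CPM in deep ones. Cst9 was at 3167 and 4864 CPM in shallow and at 3468 and 2497 CPM in deep members of wild-type replicates 1 and 2, and Defb19 at 6315 and 9905 CPM and at 6891 and 7304 CPM. For both genes the ranges overlapped and the 2 libraries differed in direction. Clu, a secreted chaperone, was lower in shallow members of both libraries, with 2762 and 3194 CPM against 7116 and 6112 CPM in deep members. Inha, with wild-type means of 645 and 1394 CPM, and Gja1, the gap junction connexin, with 104 and 262 CPM, were also lower in shallow members of both libraries. Hormones and receptors summed to 1558 and 1691 CPM in shallow and to 3549 and 2639 CPM in deep wild-type members. Genes of junctions summed to 1126 and 1119 CPM in shallow and to 2392 and 2331 CPM in deep wild-type members, without overlap. Between the ranges, 25, 27, 30 and 29 members had from 5000 to under 10000 UMIs and summed to 1161 to 2340.5 CPM for 5 fibroblast markers (Dcn, Clec3b and others), against 130 to 207 CPM in deep members.

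**Figure D2:**
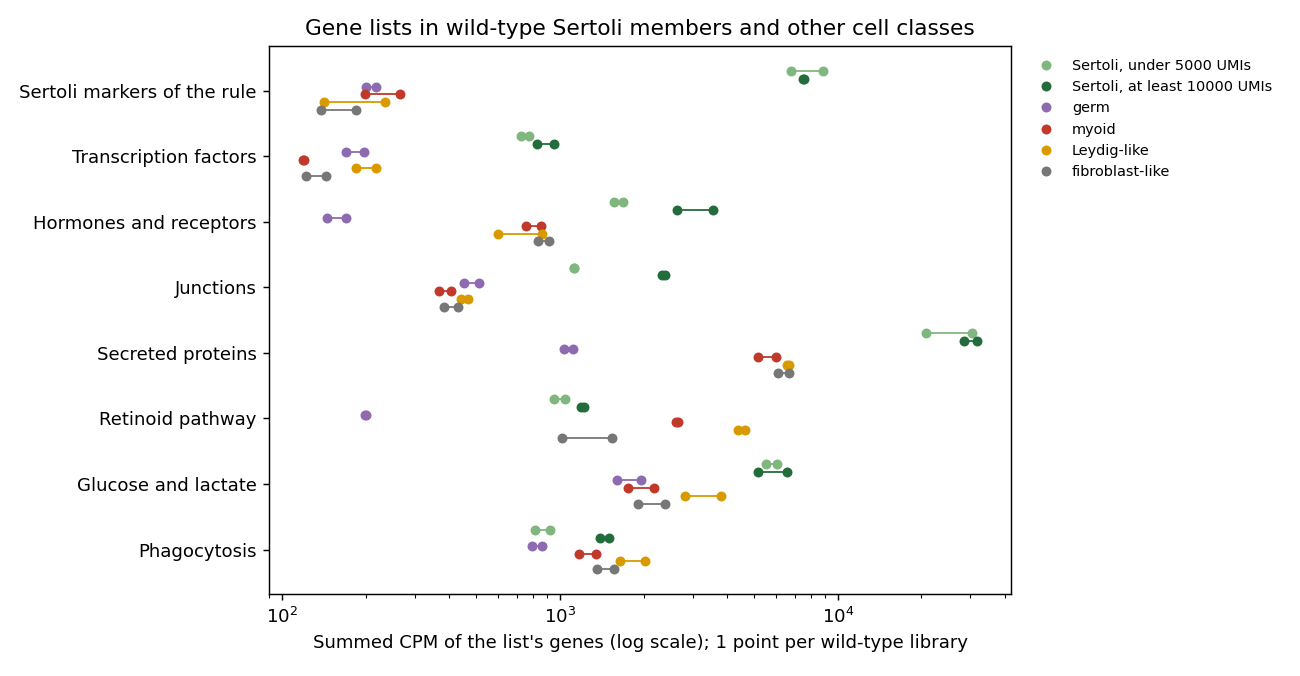
Summed level of 8 gene lists (rows) in wild-type Sertoli members of both depth ranges and in 4 other cell classes, in CPM on a log axis, with 1 point per wild-type library and a line joining the 2 libraries. The secreted proteins lie between 20782 and 31805 CPM in Sertoli members, and the retinoid list lies higher in myoid and Leydig-like cells than in Sertoli members.

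The lists below were read in wild type by role. Among 10 transcription factors, 9 had UMIs in members of both wild-type libraries. Nr0b1, an orphan nuclear receptor of the gonads, led with 246 and 169 CPM, followed by Rhox5, an androgen-responsive homeobox gene, with 171 and 168 CPM. Gata6 was at 105 and 90.0 CPM and Gata1, shared with red blood cell precursors, at 92.8 and 89.6 CPM, and the spread between the libraries did not separate these 2. Emx2 was at 0 in both libraries. Of hormones and receptors, Inha was followed by Amhr2, the receptor of anti-Mullerian hormone, with 976 and 725 CPM. Thra, a thyroid hormone receptor, was at 167 and 223 CPM. The beta subunits of inhibin and activin differed, with Inhbb at 145 and 129.98 CPM and Inhba at 5.88 and 5.38 CPM.

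Secreted proteins were the largest list by level. Defb19 was at 6628 and 7699 CPM, Clu at 6096 and 5446 CPM, Cst12 at 5166 and 5266 CPM and Ctsl, a lysosomal and secreted protease, at 4188 and 3661 CPM. Trf, transferrin, was at only 25.5 and 22.7 CPM and below its 133 CPM in Leydig-like cells. Of 15 junction genes, the 4 highest were Espn, an actin bundler of the ectoplasmic specialization, at 333 and 340 CPM, F11r at 311 and 265 CPM, Cgn, cingulin, at 258 and 273 CPM and Gja1 at 213 and 237 CPM. Cldn3, a claudin that responds to androgen, was at 6.86 and 6.54 CPM, against 638 and 455 CPM for Cldn11, a marker of the rule.

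Of 10 ligand genes, Kitl led with 187 and 252 CPM, followed by Dhh, desert hedgehog, with 165 and 123 CPM. Next were Wnt6 with 105 and 89.2 CPM and Wnt5a with 23.2 and 26.1 CPM. Gdnf, the growth factor of spermatogonial stem cells, was at 3.59 and 8.46 CPM and lower than its 29.1 CPM in myoid cells. In the retinoid pathway Aldh1a1, a retinaldehyde dehydrogenase, was at 491 and 488 CPM, Aldh1a2 at 121 and 118 CPM and Rara, a retinoic acid receptor, at 90.2 and 91.9 CPM. Cyp26b1, which degrades retinoic acid, was at 39.9 and 21.2 CPM in members and at 1796 CPM in myoid cells. Stra6, the retinol importer, was at 56.9 and 34.2 CPM and at 0.795 CPM in myoid cells.

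Glucose and lactate genes were led by Ldhb, a lactate dehydrogenase, at 2340.1 and 2124 CPM, Gapdh at 1465 and 1166 CPM, Pkm, pyruvate kinase, at 799 and 596 CPM and Aldoa at 707 and 634 CPM. The symbol Aldoa stands for more than 1 identifier in the files, so its level is uncertain. Ldha was at 67.0 and 63.1 CPM, and both lactate transporters Slc16a1 and Slc16a3 were detected, at 82.0 and 71.1 CPM and at 101 and 65.4 CPM. Of 14 genes of phagocytosis, Lamp1, a lysosomal membrane protein, was at 276 and 219.6 CPM, Gas6, a bridge to dying cells, at 145 and 160 CPM, and Tyro3, a receptor for Gas6, at 130.4 and 131 CPM. Tyro3 was at 6.25 CPM in myoid cells, whereas Gas6 was at 295 CPM there. Vim, the intermediate filament of Sertoli cells, was at 1166 and 1190 CPM, and Krt8 was at 0.

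Outside mitochondrial, ribosomal protein and rule genes, the 10 highest genes in wild-type members were Gm42418, Malat1, Defb19, Tmsb4x, Clu, Chchd2, Cst12, Ubb, Ctsl and Actb. Gm42418 overlaps a ribosomal RNA repeat and its counts are uncertain. It averaged 28423 CPM in shallow and 5143 CPM in deep members. Tmsb4x, an actin-binding peptide, was at 5837 and 5959 CPM.

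Variation among members was read after each of 223 and 205 wild-type members with enough depth was thinned to 2000 UMIs. The 10 genes of highest variance-to-mean ratio were Malat1, Gm42418, Mgp, Dcn, Col3a1, Igfbp7, Igfbp6, Col1a2, Apoe and Fos. Malat1 reached a ratio of 47.4 and 39.0, where counting alone gives about 1. Of these, Mgp, Dcn, Col3a1, Igfbp7, Igfbp6, Col1a2 and Apoe were all higher in myoid cells than in members. Dcn had a UMI in 7.17% and 5.37% of thinned members, with a variance-to-mean ratio of 11.2 and 14.7. Members with at least 3 markers of a Leydig, fibroblast, endothelial or macrophage list numbered 15 and 9 in the wild-type libraries, with 20 and 13 in the null ones, 57 in all. In wild type most were marked by fibroblast genes, and these held 87.1% and 93.0% of the fibroblast UMIs of all members.

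**Figure D3:**
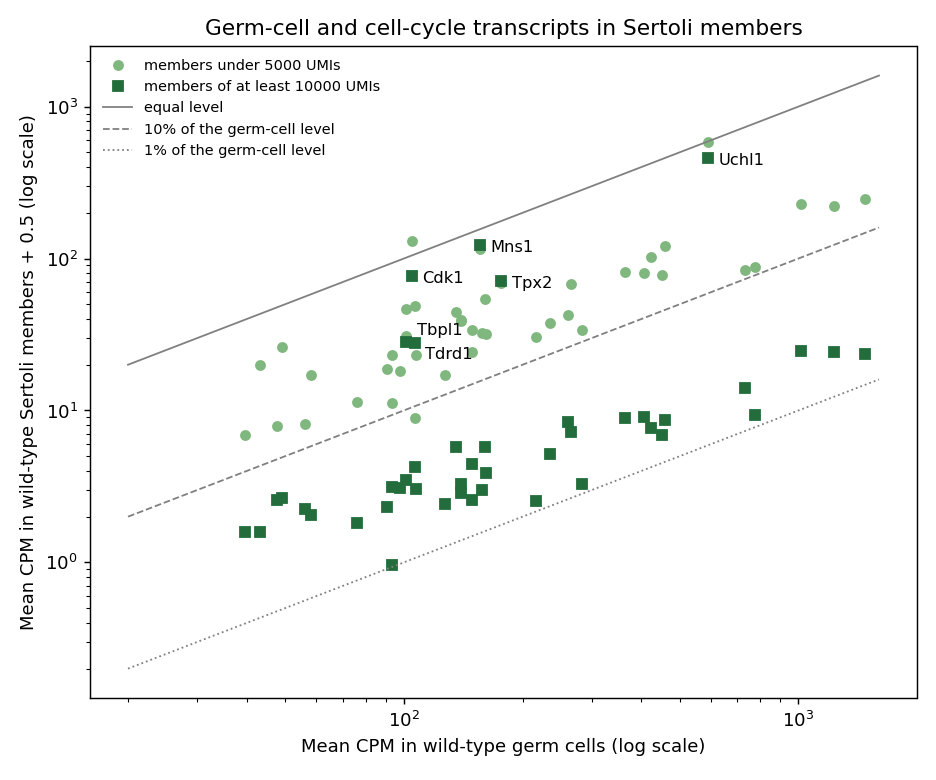
Mean CPM of germ cell and cell-cycle genes in wild-type germ cells (horizontal) against wild-type Sertoli members (vertical, CPM + 0.5), both axes logarithmic, with circles for members under 5000 UMIs and squares for members of at least 10000 UMIs. Lines mark equal levels, 10% and 1%. Most squares lie between 1% and 10%, while Uchl1, Mns1, Cdk1, Tpx2, Tbpl1 and Tdrd1 lie above 10%.

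Free germ cell RNA was read from 4 lists of germ cell genes. The limit of 2 Dazl UMIs is absolute and so stricter for deep than for shallow barcodes, and it left out 129 to 183 barcodes a library. Such barcodes counted as germ cells where they held at least 3 germ cell markers. Differences in germ cell RNA between the depth ranges, and between deep members and other classes, are therefore partly set by the rule and are a description. Over the 28 genes with at least 20 CPM in wild-type germ cells, shallow members held a median of 29.7% and 11.3% of the germ cell level and deep members 2.76% and 1.66%. In the Meioc-null libraries, over 24 genes, the medians were 25.4% and 18.9% in shallow and 2.97% and 2.32% in deep members. Myoid cells, a somatic class, held 5.52%, 2.18%, 4.295% and 1.53%. Single genes of the lists reached 24.9% to 37.8% of the germ cell level in myoid cells. The deep members were below the myoid value in 3 libraries and above it in Meioc-null replicate 2. The median UMIs were 8270 to 11288 in myoid cells and 19867.5 to 24917 in deep members. Sycp1, a synaptonemal complex gene, was at 303 and 189 CPM in shallow, at 27.2 and 19.2 CPM in deep wild-type members and at 1186 and 1762 CPM in germ cells. Ddx4, the germ cell helicase, was at 119 and 41.4 CPM, at 12.6 and 4.42 CPM and at 408 and 404 CPM in the same order.

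A few genes of these lists did not follow the others. Uchl1, a ubiquitin hydrolase used to mark spermatogonia, was at 540 and 375 CPM in deep wild-type members, at 584 and 411 CPM in deep Meioc-null members and at 597 and 583 CPM in wild-type germ cells. In myoid cells it was at 26.5 CPM. Mns1, a protein of the sperm flagellum, was at 132 and 112 CPM in deep wild-type members against 171 and 140.0 CPM in germ cells and 13.1 CPM in myoid cells. Tbpl1 and Tdrd1 stood at 27.5% and 25.8% of the germ cell level in deep members, although Tbpl1, at 27.6 and 28.0 CPM there, was close to its 25.4 CPM in myoid cells. Over the 4 libraries the levels of these 4 genes overlapped between deep and shallow members, whereas those of Sycp1 and Ddx4 did not. They were singled out after their values were seen.

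The cell-cycle list split in the same way. Mki67, Top2a and Cenpf, which mark dividing cells, were at 0.97%, 1.86% and 1.14% of the germ cell level in deep wild-type members and at 11.7%, 11.5% and 11.2% in shallow ones. Cdk1, the mitotic kinase, was at 82.9 and 69.3 CPM in deep wild-type members, 72.7% of its germ cell level, and Tpx2, a spindle protein, at 72.9 and 68.8 CPM, 40.2% of it. After thinning to 2000 UMIs, 22 of 223 (9.87%) and 5 of 205 (2.44%) wild-type members had a UMI of at least 3 of the 16 genes, against 2.80% and 2.32% of myoid cells. In Meioc-null libraries the shares were 11.6% and 6.45%. Thinning left out 99, 34, 78 and 48 members under 2000 UMIs. Deep members had shares of 1.22%, 0, 1.85% and 0, each from 2000 UMIs a cell. Shallow members had shares of 17.2%, 2.83%, 14.9% and 8.39%, and were also the members with most germ cell RNA. Without thinning, the shares were 37.0%, 18.4%, 31.5% and 27.2% of all members. The order of the depth ranges then turned, with 27.4%, 6.43%, 24.5% and 20.9% of shallow and 65.9%, 36.1%, 59.3% and 48.9% of deep members. These unthinned shares compare cells of unequal depth, and Cdk1 and Tpx2 count among the 16 genes. The part of free RNA in the shallow shares was not tested.

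Between genotypes, the share of all members, shallow and deep together, among kept barcodes did not separate. It was 5.08% and 2.81% in wild type (3.95% ± 1.61, SD, n = 2) and 4.46% and 3.67% in Meioc-null (4.07% ± 0.559, SD, n = 2), and the exact 95% binomial interval of each librarys ran from 2.47% to 5.65% over the 4 libraries. An exact permutation test over the libraries, two-sided, gave p = 1. With 2 libraries against 2 the smallest p of this test is 0.33. The test, here and below, did not use the littermate pairs. Members were more in wild type within batch 1, by 0.62 percentage points, and fewer within batch 2, by 0.86. Fewer cells in the testis and fewer cells captured cannot be told apart. The deep share of members was 27.8% ± 3.29 (SD, n = 2) in wild type and 16.5% ± 0.677 (SD, n = 2) in Meioc-null, higher in wild type by 9.44 and 13.1 percentage points in batches 1 and 2. The groups did not overlap, and the exact permutation p was 0.33, the smallest possible. Of the kept barcodes, 82 of 6334 and 72 of 8494 were deep members in wild type. In Meioc-null they were 54 of 7550 and 45 of 7214. This share of kept barcodes was not tested. The dividing share was 6.15% ± 5.25 and 9.02% ± 3.63 (SD, n = 2 each), with an exact permutation p = 0.667. Its wild-type minus Meioc-null difference was -1.72 and -4.01 percentage points in batches 1 and 2, and 5.50 and -8.76 without thinning. The germ cell lists differed in direction. The pachytene list, which holds Mns1, was at 292 and 174 CPM in the wild-type libraries, above the 164 and 127 CPM of the null ones. Its exact permutation p was 0.33, the smallest possible. The spermatogonia list, which holds Uchl1, was at 559.5 and 437 CPM against 645 and 506 CPM and overlapped. The 4 germ cell lists together gave 1086 ± 325 and 1088 ± 188 CPM in members (SD, n = 2 each), with an exact permutation p = 1. That sum includes Uchl1 and Mns1, which did not follow the other genes of the lists. Their part in it was not tested.

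Across genes, the genotypes were compared by edgeR's quasi-likelihood test on the UMIs summed over the members of each library. Of 10708 genes tested, 1 (0.00934%) passed a Benjamini-Hochberg adjusted p of 0.05 with an absolute log2 fold change over 0.1, and 467 had an unadjusted p under 0.05. Selenop, the plasma selenium carrier (ENSMUSG00000064373), was at 15.4 and 11.9 CPM in wild type and at 56.0 and 38.4 CPM in Meioc-null. The log2 ratio of wild type to Meioc-null was -1.77 ± 0.25 (SE), and the adjusted p by edgeR was 0.00977. It lies on chromosome 15, from 3268547 to 3280508 on GRCm38. It was at 127 CPM in wild-type myoid cells, and once the 57 members with markers of another type were left out its log2 fold change was -0.59 ± 0.49 with an adjusted p = 1.00 by edgeR. In members of at least 10000 UMIs it was -2.49 (adjusted p = 2.22e-08 by edgeR), and with at least 4 markers -2.42 (adjusted p = 0.00843 by edgeR). It shrank without Scrublet doublets, to -0.77 (adjusted p = 1.00 by edgeR), with 0 Dazl UMIs, to -0.99 (adjusted p = 0.408 by edgeR), and at a mitochondrial limit of 5%, to -0.59 (adjusted p = 1.00 by edgeR). Without Meioc-null replicate 1 or 2, which leaves 1 library in that group, it was -1.54 and -1.95 (adjusted p = 0.123 and 0.0555 by edgeR).

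No gene of the Sertoli lists passed that test. This held for all 9 transcription factors, 10 hormones and receptors, 13 junction genes, 12 secreted proteins, 7 ligands, 9 retinoid genes, 13 genes of glucose and lactate and 14 genes of phagocytosis tested. The median log2 fold change was 0.04, 0.10, -0.01, 0.08, 0.19, -0.22, -0.02 and -0.07 in these lists, against -0.00 over all genes tested. Some fits given below called a list gene, higher in Meioc-null. They called 1 of 13 junction genes with the littermate pair as a block and 1 of 7 ligands in members of at least 10000 UMIs. The block fit without the 57 members with markers of another type called 1 of 9 retinoid genes. These fits called 0.831%, 0.818% and 0.388% of all genes tested. Amh was at 126 and 75.0 CPM in wild type and at 61.1 and 78.1 CPM in Meioc-null. Its log2 fold change was 0.54 ± 0.24 (SE), at an adjusted p of 1.00 by edgeR. The groups overlapped, and the 126 CPM of wild-type replicate 1 stood apart. The log2 fold change was 0.14 without that library and 0.84 without wild-type replicate 2, where the adjusted p by edgeR was 0.0249. Without Meioc-null replicates 1 and 2 in turn it was 0.31 and 0.80. Fshr was at 26.1 and 20.0 CPM in wild type, compared with 18.4 and 17.1 CPM in the null libraries. Its log2 fold change was 0.39 ± 0.26 (SE), at an adjusted p of 1.00 by edgeR. Inha, at 1454 and 986 against 1089 and 1316 CPM, had a log2 fold change of 0.02 ± 0.22 (SE). Summed over the list, retinoid genes did not overlap between genotypes. They were at 1161 and 1183 CPM in wild-type and at 1427 and 1514 CPM in Meioc-null members. Phagocytosis genes were also higher in both Meioc-null libraries, and secreted proteins in both wild-type libraries. The exact permutation p of each was 0.33, the smallest possible. The sums of the other lists named here overlapped. A p that missed the threshold with 2 libraries per genotype does not show equal levels.

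**Figure D4:**
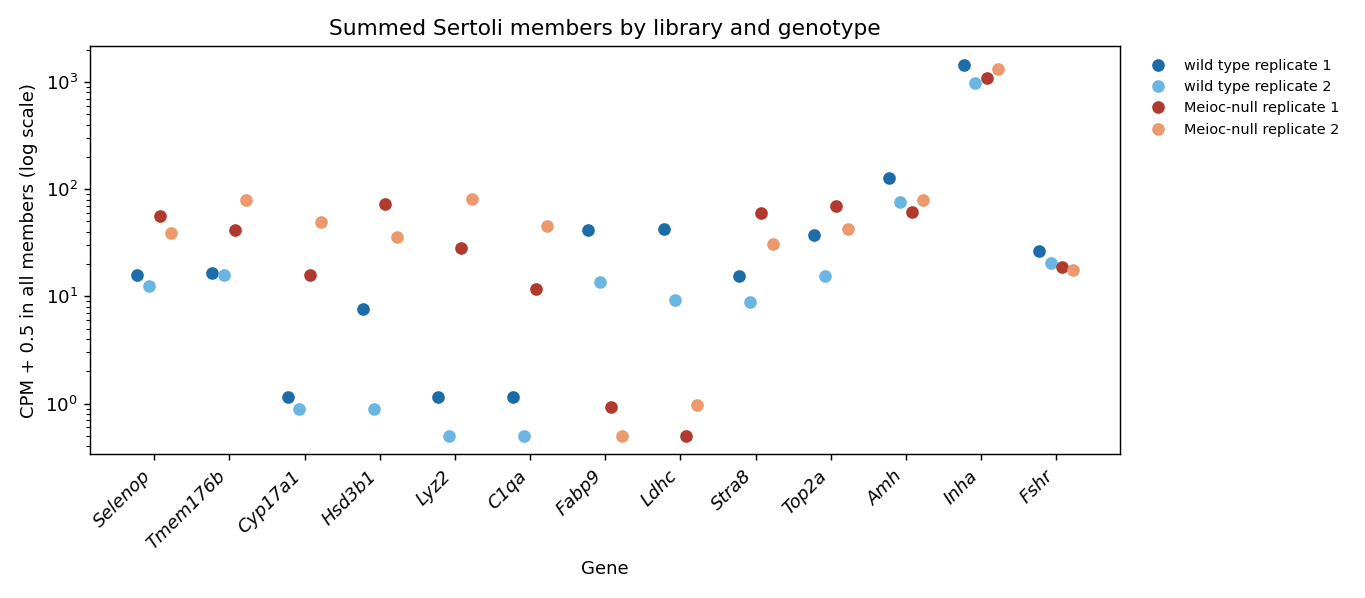
Level of 13 genes in the summed Sertoli members of each library, in CPM + 0.5 on a log axis, colored by library. Cyp17a1, Lyz2 and C1qa are higher in both Meioc-null libraries, Fabp9 and Ldhc in both wild-type libraries, and Amh and Inha overlap between genotypes.

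With the littermate pair as a block, edgeR called 89 of the same 10708 genes (0.831%), 13 higher in wild type, 76 in Meioc-null. Of the 13 higher in wild type, 11 (84.6%) were at a higher level in germ cells than in members, as were 52.8% of all genes tested, taking the higher of both genotype means in each class. Fabp9 and Ldhc, transcripts of pachytene spermatocytes, were at 41.5 and 13.1 CPM and at 41.8 and 8.84 CPM in wild-type members. In Meioc-null members they were at 0.43 and 0 CPM and at 0 and 0.46 CPM. In germ cells Fabp9 was at 448 and 397 CPM in wild type and at 4.44 and 6.47 CPM in Meioc-null. Piwil1, Tesmin and Cox8c, further transcripts of late prophase, were called in the same direction. Stra8, the retinoic acid target that marks entry into meiosis, was called the other way, at 15.0 and 8.46 CPM in wild-type and at 59.4 and 30.1 CPM in Meioc-null members, and was at 395 and 337 against 989 and 769 CPM in germ cells. In each case members followed the direction of the germ cells of the same libraries.

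Of the 76 genes called higher in Meioc-null members, 60 (78.9%) were at a higher level in germ, myoid, Leydig-like or fibroblast-like cells than in members, near the 72.9% of all genes tested. By class, 48.7% were higher in myoid cells, against 32.5% of all genes tested, and 26.3% in germ cells, against 52.8%. Leydig markers gave 4 of 5 tested, Cyp17a1, Hsd3b1, Cyp11a1 and Star, enzymes and a transporter of steroid synthesis. Hsd3b1 was at 7.19 and 0.38 CPM in wild-type and at 71.8 and 35.1 CPM in Meioc-null members. The 6 Leydig markers summed to 76.2 and 51.1 CPM in wild-type and to 223 and 337 CPM in Meioc-null members, and 1 cell of each Meioc-null library held 54.5% and 29.8% of their UMIs. Macrophage markers gave 2 of 2 tested, C1qa and Lyz2, at 0.654 and 0 CPM each in wild type. Lyz2 was at 27.8 and 80.9 CPM in Meioc-null, where a single cell of replicate 2 held 99.01% of the UMIs of the 6 macrophage markers and 5 members of replicate 1 carried at least 3 of them. Adgre1 and Itgam, which define macrophages, were at 0.855 and 4.62 CPM and at 0 and 0.462 CPM in Meioc-null members. Endothelial markers gave 1 of 4 tested, Ly6c1, and Cldn5, an endothelial gene outside that list, was called in the same direction. The hemoglobin gene Hbb-bs was at 1012 and 2198 CPM in the members of batch 1 and at 1.54 and 1.85 CPM in those of batch 2. In Meioc-null replicate 1 it was only at 63.1 CPM in shallow and at 6.15 CPM in deep members, so nearly all of its UMIs lay in the 30 members between these ranges.

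Leaving out the 57 members with markers of another type, the block fit called 40 of 10303 genes (0.388%), 14 higher in wild type, 26 in Meioc-null. Only 2 Leydig markers and no macrophage or endothelial marker passed the filter on low counts in this fit, and neither of the 2 was called. Fabp9, Ldhc, Tesmin, Cox8c and Stra8 stayed among the calls. Fosb, Jun and Junb, immediate early genes, were higher in wild type with log2 fold changes of 1.29 ± 0.22, 0.67 ± 0.18 and 0.78 ± 0.19 (SE). Their adjusted p was 1.01e-05, 0.0428 and 0.0164 by edgeR. Over all members with the block, edgeR called none of the 10 stress genes, Fosb included. There the adjusted p of Jun and Junb was 1.00 and 0.64 by edgeR. Without the block, edgeR called none of the 10 in the members without markers of another type. The adjusted p there was 0.948 for Fosb, 0.797 for Jun and 0.263 for Junb by edgeR. In deep members none was called either, the median log2 fold change of the list was -0.03, and Fos was lower in both wild-type libraries (412 and 497 CPM) than in both null ones (592 and 613 CPM). These genes were higher in deep than in shallow members, and deep members made up 27.8% of wild-type but 16.5% of Meioc-null members. The part of that share in the calls was not tested. Top2a was called higher in Meioc-null with and without those members, at 36.9 and 15.0 CPM against 69.2 and 41.6 CPM, and was at 717 and 748 against 946 and 842 CPM in germ cells.

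The depth ranges gave different calls, in fits without the block. Among members under 5000 UMIs, 15 of 6508 genes (0.23%) were called, 13 of them higher in wild type and all 13 at a higher level in another class than in members, as were 67.5% of all genes tested in this fit. They included Fabp9, Ldhc, Cox8c and Tesmin and also Col1a2, Col4a1 and Igfbp7, and Stra8 was called higher in Meioc-null. Col4a1 and Igfbp7 were called the other way in deep members, with log2 fold changes of 2.15 and 2.27 in shallow and of -1.03 and -1.94 in deep members. Col1a2 had 2.71 in shallow and -0.88 in deep members, the latter with an adjusted p = 0.296 by edgeR. Among members of at least 10000 UMIs, 81 of 9902 genes (0.818%) were called, 3 higher in wild type, 78 in Meioc-null, of which 60 (76.9%) were at a higher level in myoid cells than in members, against 30.8% of all genes tested in this fit. The 3 were Kcng2, a potassium channel subunit, 1700030K09Rik and Rgs17, and none of them was higher in another class. Kcng2 was at 69.1 and 92.8 CPM in deep wild-type and at 40.3 and 41.3 CPM in deep Meioc-null members. The log2 fold change was 0.99 ± 0.23 (SE), at an adjusted p of 0.01 by edgeR.

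When the deep members with markers of another type were left out as well, 9 of 9545 genes (0.0943%) were called, all 9 higher in Meioc-null. They were Tmem176b, Rrad, Pde10a, Ccnd1, Maf, Akap6, B4galt4, Cald1 and Ifitm3. Of the 9, 6 (66.7%) were at a higher level in myoid cells than in members, against 29.1% of all genes tested in this fit, and 8 (88.9%) in some other class, against 70.6%. Tmem176b, a membrane protein, was at 13.4 and 16.7 CPM in deep wild-type and at 57.4 and 111 CPM in deep Meioc-null members, where this fit gave a log2 fold change of -2.13 ± 0.31 (SE) and an adjusted p = 0.00117 by edgeR. Ccnd1, the cyclin of the first gap phase, had 20.1 and 15.2 CPM in deep wild-type members, below the 51.9 and 44.0 CPM of deep Meioc-null members. Its log2 fold change was -1.41 ± 0.27 (SE), at an adjusted p of 0.00779 by edgeR. Tmem176b was at 208 CPM and Maf at 91.7 CPM in wild-type myoid cells. These genes were chosen after their values were seen, and the part of mixed barcodes in them was not tested beyond the markers used.

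Whether the genotype difference of a gene was the same in Sertoli members and in myoid cells of the same libraries was tested as an interaction in edgeR. Of 13209 genes, 12 (0.0908%) had an adjusted p under 0.05, all with more negative wild-type over Meioc-null differences in Sertoli members, and 810 had an unadjusted p under 0.05. The first 5 were C1qb, Pf4, Lyz2, C1qc and F13a1, and C1qa, Aif1, Mrc1, Cbr2 and Wfdc17 followed, with Akr1cl and Selenop. Mrc1 was at 24.5 and 24.2 CPM in wild-type and at 27.8 and 28.7 CPM in Meioc-null members, and its difference lay in myoid cells, with a log2 fold change of 2.80 and an adjusted p = 0.0119 by edgeR. F13a1 was also called in myoid cells, higher in wild type, with 5.29 and an adjusted p = 0.0111 by edgeR. C1qb, a complement subunit of macrophages, was at 0.65 and 0.77 CPM in wild-type and at 17.1 and 49.5 CPM in Meioc-null members, and at 3.81, 12.4, 0.87 and 5.09 CPM in myoid cells of wild-type replicates 1 and 2 and Meioc-null replicates 1 and 2. Without the 57 members with markers of another type, edgeR called 0 of 13167 genes, with 695 at an unadjusted p under 0.05 and a lowest adjusted p of 0.0527, that of Mrc1. The members left out were picked by markers that include C1qa and Lyz2, so for such genes the loss is partly set by the removal. Of the 12 genes 10 were still tested, all 10 with a negative interaction, which went from -6.91 to -4.17 on the log2 scale for C1qb, from -1.62 to -0.44 for Selenop and from -2.95 to -2.90 for Mrc1.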

How the data were processed

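The authors deposited UMI counts per gene and barcode, made with Cell Ranger 4.0.0 on mm10 (GRCm38) from Chromium 3′ libraries of 4 testes, with no normalization beyond cell calling. The deposited barcodes are filtered here by genes and mitochondrial share as stated. Counts were summed over members of each library and tested in edgeR 4.0.16 (R 4.3.3; quasi-likelihood, TMM, filterByExpr), with Benjamini-Hochberg adjustment over all genes tested and DESeq2 1.42.0 as an alternative. Positive log2 fold changes are higher in wild type. Python 3.11, scanpy 1.11.5 and scipy 1.17.1 were used elsewhere, and the edgeR step was tested on simulated data. Kept barcodes were ranked by Scrublet score, and a preset top share, 0.8% per 1000 barcodes of the library, was marked as doublets. This marked 690, 989, 996 and 692 kept barcodes, among them 51, 31, 37 and 22 members, which were kept in the main test. Scrublet's own threshold marked 2.18% to 4.97% of kept barcodes. Depth is given per library above, and intervals cover counting error only. The replicate number pairs littermates of a batch, and deviations of same-numbered libraries correlated at r = 0.230 over 10708 genes. Members and gene lists were chosen with earlier results of these data known. Named genes were up to 4 of highest wild-type level per list and called members, the 15 of highest ratio to other classes, the 10 of highest level, the 10 of highest variance-to-mean ratio, up to 10 called genes per direction and up to 5 of the interaction. Other genes named were chosen after their values were seen. Myoid, Leydig-like and fibroblast-like cells held at least 3 markers of their class, summing to at least 5 per 10000 UMIs. They also held at most 2 Dazl UMIs and fewer than 3 of the 5 Sertoli markers. Germ cells held at least 3 of 5 germ cell markers and over 2 Dazl UMIs, with no limit on Sertoli markers. Coordinates and promoters are from GRCm38. Results for some genes are not reported here.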

Additional observations from a re-analysis of the deposited data

Results flagged for a closer look

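The genotype difference of 12 genes differed between Sertoli members and myoid cells by the interaction test in edgeR with Benjamini-Hochberg adjustment. The adjusted p was 4.47e-05 for C1qb, 4.47e-05 for Pf4, 4.47e-05 for Lyz2, 0.000126 for C1qc and 0.00142 for F13a1, each higher in both Meioc-null libraries than in both wild-type libraries of the members (n = 2 per genotype). In Meioc-null replicate 2 a single cell held 99.01% of the UMIs of the macrophage markers. The part of macrophage RNA in single members was not tested beyond leaving out the 57 members with markers of another type. Without them 0 of 13167 genes were called, a loss partly set by the removal, since its markers include Lyz2.

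Barcodes with 1000 detected genes or fewer, which entered no comparison, also met the Sertoli marker rule. They numbered 428 and 268 in wild-type replicates 1 and 2 and 662 and 344 in Meioc-null replicates 1 and 2, with a median of 883.5 to 1088.5 UMIs.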

How the results depend on the processing

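The count of genes called between genotypes, 1 in edgeR, was 11 in DESeq2, 4 with a filter on 25% of cells, 100 with no filter on low counts and 89 with the replicate block. It was 23 with at least 4 markers, 9 with a marker sum of at least 10, 25 with 0 Dazl UMIs and 3 without Scrublet doublets. Leaving out 1 library gave 1 to 113 (113 without wild-type replicate 1, 78 without wild-type replicate 2, 14 without Meioc-null replicate 1). In alternatives chosen after seeing the data it was 15 in members under 5000 UMIs and 17 with the block, 81 in members of at least 10000 UMIs and 137 with the block, and 3 in members without markers of another type and 40 with the block. It was 9 in deep members without such markers. The interaction with myoid cells gave 113 genes with no filter, 0 without the 57 members and 14 to 89 when 1 library was left out (31 without wild-type replicate 1, 46 without Meioc-null replicate 1, 89 without Meioc-null replicate 2). The wild-type minus Meioc-null share of members was -3.42 percentage points at a mitochondrial limit of 5%, where Amh also reversed to a log2 fold change of -0.39. That limit left 124 and 94 members in wild-type replicates 1 and 2 and 149 and 158 in Meioc-null replicates 1 and 2. It lies below the median mitochondrial share of deep members in every library. Jun reversed to -0.10 in members under 5000 UMIs, and to -0.10 with the block. The cause was not tested. Of 506 summed list values over 22 settings, 448 moved by less than the spread between libraries and 58 by more.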
